A study of Homo sapiens with 4 samples.

Results

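Interleukin 6 signals through a short chain of proteins, and the genes of this chain were followed in LASCPC-01 cells, a human neuroendocrine prostate cancer line that was grown from transformed prostate epithelial cells carrying N-Myc and active AKT1. The 10 genes were chosen by symbol because IL6 and STAT3 are a proposed pathway of the drug tested, ketotifen, an H1 antihistamine and mast cell stabiliser. Of these, 9 have a row among the 16376 genes of the table, namely IL6R, IL6ST, JAK1, JAK2, TYK2, STAT3, SOCS3, PIAS3 and PTPN11. IL6 itself was not analysed here. Wild-type cells received PBS (2 libraries) or ketotifen (2 libraries), and both groups are labelled day 3. The dose is not given in the sources used here; the ketotifen columns of the table carry a 5 in their names, whose meaning is not stated. All libraries came from 1 cell line, and nothing says whether the libraries of a group were separate cultures, so the p-values reflect only how far these libraries scatter, and that scatter may be technical. Values are FPKM, which are fragment counts scaled to gene length and to library size. Comparisons between genes therefore depend on the gene lengths used, which the sources used here do not give.

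IL6 binds its receptor IL6R, and the pair then engages IL6ST, the signalling chain shared by the whole cytokine family. The kinases JAK1, JAK2 and TYK2 sit on the tail of IL6ST and phosphorylate STAT3, which dimerises, enters the nucleus and switches on genes that include its own feedback inhibitor SOCS3. PIAS3 binds active STAT3 and blocks it from DNA, and the phosphatase SHP2, the product of PTPN11, links the receptor to the MAP kinases. In prostate cancer this pathway is known for its ties to neuroendocrine differentiation. The signal runs through phosphorylation, which RNA levels do not measure.

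The sequence that STAT dimers recognise is TTCNNNGAA, which reads the same on both strands. It was looked for in RefSeq promoter windows (GRCh38.p14), which run from 250 bases before to 50 bases after each gene's start. Of the 10 pathway genes 9 have such a window (PTPN11 has none in the table used), and 0 of the 9 hold the letters, against 2560 of 27305 genes overall (9.38%). Among 73 genes with a window in the lists of pathway genes described below, 6 hold it. The 4 of these that have an FPKM row are shown with the matches in capitals, because they are the measured genes of the lists that carry the STAT recognition letters close to a start. A match is a description of the letters and no evidence of binding.
CISH, chr3:50611853-50612024, minus strand: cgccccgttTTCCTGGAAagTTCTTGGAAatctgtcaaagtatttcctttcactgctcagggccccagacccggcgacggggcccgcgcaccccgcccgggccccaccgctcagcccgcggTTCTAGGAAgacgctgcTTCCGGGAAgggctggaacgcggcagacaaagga
IRF1, chr5:132490864-132490922, minus strand: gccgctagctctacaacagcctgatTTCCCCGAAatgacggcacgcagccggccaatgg
ICAM1, chr19:10271020-10271078, plus strand: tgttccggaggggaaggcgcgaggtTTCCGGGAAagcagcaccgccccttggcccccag
LIFR, chr5:38595537-38595595, minus strand: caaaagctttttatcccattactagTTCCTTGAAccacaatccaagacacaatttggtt
LIFR, chr5:38557616-38557674, minus strand: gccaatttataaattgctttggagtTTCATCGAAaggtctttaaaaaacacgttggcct
The window of CISH, a feedback inhibitor of cytokine receptors, holds 4 matches, between 241 and 112 bases before its start. IRF1, a transcription factor of the interferon response, and ICAM1, an adhesion molecule, hold 1 match each, at 124 and 75 bases before the start. LIFR, the receptor for leukaemia inhibitory factor, holds 1 match at each of its starts shown. CISH had 2.38 and 2.28 FPKM with PBS and 2.98 and 2.33 with ketotifen, ranges that overlap (limma adjusted p = 0.499). IRF1 had 4.25 and 4.84 FPKM with PBS and 3.98 and 3.88 with ketotifen (limma adjusted p = 0.287). ICAM1 rested on 7 to 27 reads per library and LIFR on 313 to 390, both below the level tested. Neither CISH nor IRF1, the tested genes of the 4, passed.

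Libraries were of similar depth. Whole reads could be worked back from the steps in the FPKM values, and they summed to between 31313357 and 34979608 per library. Letters A and B name the libraries of a group, as the table's columns do. The cells carried some but not all markers of their label. NCAM1 (43.9 to 52.0 FPKM), INSM1 (19.7 to 22.9) and UCHL1 (434 to 490) were expressed, while SYP stayed at 0.379 to 0.594 FPKM and CHGA at 0 to 7 reads. NCAM1 had 52.0 and 51.2 FPKM with PBS and 44.4 and 43.9 with ketotifen (adjusted p = 0.107 with limma and 0.00997 with voom). UCHL1 went the other way, with 458 and 434 against 487 and 490 FPKM (adjusted p = 0.226 with limma and 0.0979 with voom). The groups overlapped in INSM1. Voom, described below, called 3.47% of all tested genes lower. Of 5 immune cell markers, CD68 had 2.77 to 3.97 FPKM and the others at most 0.151, and the 3 endothelial markers had at most 0.147 FPKM each. Of the 3 fibroblast markers DCN and LUM had at most 0.212 FPKM, and COL1A1 had 2.53 and 2.75 FPKM with PBS and 2.39 and 1.95 with ketotifen, lower in both (log2 change -0.20, limma adjusted p = 0.282). Its part in the results was not tested. Summed, the immune markers came to 2.89 and 4.14 FPKM with PBS and 3.05 and 3.18 with ketotifen, nearly all of it CD68. In bulk RNA, fewer cells of a type and less RNA per cell cannot be told apart.

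The 9 genes kept one order of FPKM in all 4 libraries, an order that rests in part on gene lengths that are not given. PTPN11 was highest with 37.4 to 39.1 FPKM, followed by STAT3 (25.5 to 26.7), JAK1 (22.4 to 24.5), TYK2 (17.0 to 18.6), PIAS3 (11.4 to 14.6), IL6R (8.61 to 11.4), IL6ST (2.49 to 3.46), JAK2 (1.26 to 1.70) and SOCS3 (0.151 to 0.356). No gene's range over the 4 libraries touched that of its neighbour in this order. STAT3, PTPN11, JAK1, TYK2 and PIAS3 thus lay above both receptor chains in FPKM, JAK2 lay below them, and the feedback inhibitor was the lowest.

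**Figure D1:**
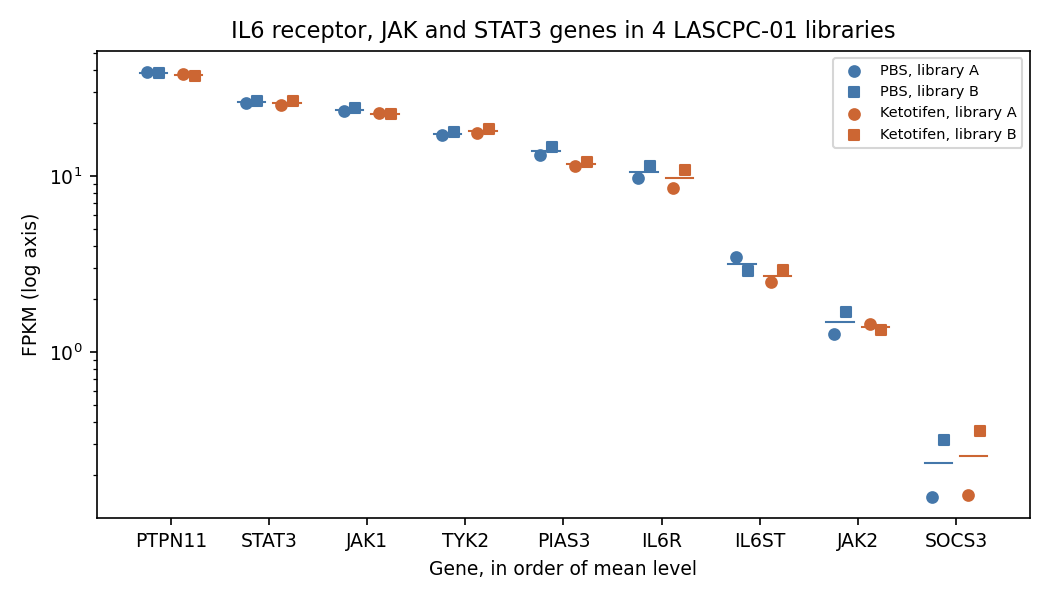
FPKM of 9 genes of IL6 receptor signalling in each of 4 libraries, on a log axis. Circles and squares are libraries A and B, blue is PBS and orange ketotifen, and lines are group means. The 9 genes keep the same order in every library, from PTPN11 near 38.3 to SOCS3 near 0.244 FPKM.

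None of the 8 genes that could be tested changed with ketotifen past the threshold. The test was limma on log2(FPKM + 1) over the 10586 genes that averaged 1 FPKM or more, with Benjamini-Hochberg adjustment and a threshold of 0.05. It called 0 of the 8, and 0.123% of all tested genes (0.113% lower and 0.00945% higher with ketotifen). At an unadjusted p under 0.05 there was 1, PIAS3, against 20.4% of all tested genes (10.3% lower). With voom, which is limma on the recovered reads, 0 of the 8 passed, against 6.82% of all genes, and 2 (PIAS3 and IL6ST) had an unadjusted p under 0.05, against 23.7% (13.4% lower and 10.3% higher). The change was below 0 in 7 of the 8, where 55.7% of all tested genes lay below 0. Their median change was -0.06 (log2 of FPKM + 1, ketotifen less PBS), beside -0.02 over all tested genes, and the median size regardless of sign was 0.064 beside 0.089. In 3 of the 8 (JAK1, PIAS3 and PTPN11) both ketotifen libraries lay below both PBS libraries, as in 31.2% of all tested genes, and in 0 were both above (23.2%; 54.4% in either direction). These shares are given as the setting in which the pathway genes are read, and no test was made on the set.

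**Figure D2:**
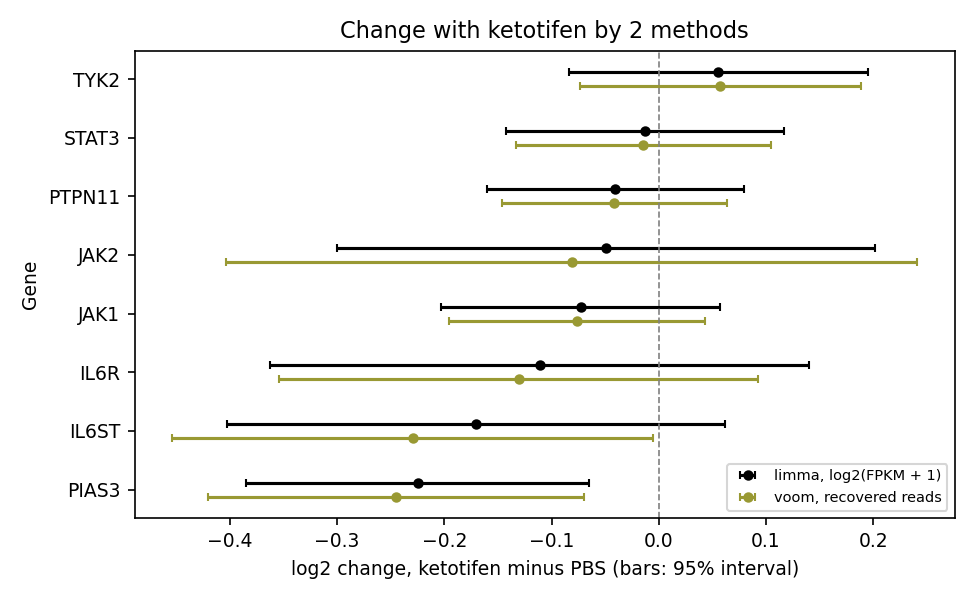
Change of the 8 tested genes with ketotifen, as log2 ketotifen minus PBS with its 95% interval, from limma on log2(FPKM + 1) in black and from voom on recovered reads in olive. The limma interval of PIAS3 (-0.38 to -0.06) lies below 0 before adjustment, and the other 7 limma intervals span 0. With voom the intervals of PIAS3 (-0.42 to -0.07) and IL6ST (-0.45 to -0.005) lie below 0 before adjustment.

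At the receptor, neither chain changed past the threshold. IL6R, which binds the cytokine, had 9.73 and 11.4 FPKM in PBS libraries A and B and 8.61 and 10.8 in ketotifen libraries A and B. The groups interleaved, and within each group library B was higher than library A by more than the group means differed (10.5 ± 1.15 with PBS and 9.72 ± 1.56 with ketotifen, SD, n = 2). The log2 change was -0.11 ± 0.11 (SE, limma adjusted p = 0.589), with a 95% interval of -0.36 to 0.14. IL6ST, the shared signalling chain, had 3.46 and 2.89 FPKM with PBS and 2.49 and 2.93 with ketotifen. Ketotifen library B lay between the PBS libraries, so these groups overlapped as well. The change was -0.17 ± 0.10 (SE, limma adjusted p = 0.373) with an interval of -0.40 to 0.06, and voom gave -0.23 ± 0.11 (SE, adjusted p = 0.199).

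IL6R exceeded IL6ST in FPKM in every library. The ratio of their FPKM was 2.81 and 3.93 with PBS and 3.46 and 3.69 with ketotifen, so the ketotifen values lay within the PBS range. Both genes were counted on similar numbers of reads, 962 to 1201 for IL6R and 829 to 1033 for IL6ST. The ratio of FPKM depends on the gene lengths used, which are not given. GENCODE 29 has 6453 exonic bases for IL6R and 9292 for IL6ST. In the GENCODE 29 annotation 797 exonic bases of IL6ST (8.58%) are shared with an antisense transcript, and each chain has a processed pseudogene (IL6RP1 and IL6STP1). The kit keeps strand, but no source used here says whether the counting did, so sense and antisense reads of this overlap cannot be told apart. IL6R lies at chr1:154405193-154469450 on the plus strand of GRCh38 and IL6ST at chr5:55935095-55994993 on the minus strand.

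RNA of the other measured cytokines of the family was sparse. Of 9 cytokines of the family listed, 5 had a row and 1 reached the level tested. That 1 was CNTF, ciliary neurotrophic factor, with 1.12 and 1.07 FPKM with PBS and 1.43 and 1.40 with ketotifen. Both ketotifen libraries were higher, on 70 to 100 reads, and the change of 0.21 ± 0.09 (SE) did not pass (limma adjusted p = 0.245, voom adjusted p = 0.398). Of the exonic bases of CNTF, 38.6% belong also to the readthrough gene ZFP91-CNTF, so its reads are uncertain. LIF, leukaemia inhibitory factor, had 47 to 74 reads per library, CLCF1 13 to 27, IL11 0 to 2 and CTF1 0 to 1. These 4 were named after their values were seen.

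Of 8 receptor genes of the family all had a row, 4 were tested and 0 passed limma's threshold in either direction, which 0.123% of all tested genes did. The median change of the 4 was -0.12, beside -0.02 over all tested genes. IL11RA, which binds interleukin 11, had 4.06 and 4.08 FPKM with PBS and 3.42 and 4.23 with ketotifen (limma adjusted p = 0.674), and IL27RA 1.12 and 1.08 against 0.767 and 1.104 (limma adjusted p = 0.548). In both, ketotifen library A was lowest and ketotifen library B lay among or above the PBS libraries. LIFR had 0.842 to 0.993 FPKM, and OSMR, the oncostatin M receptor, had 2 to 19 reads. The proteases ADAM10 and ADAM17, which release IL6R from the cell surface, had 10.8 to 11.3 and 5.38 to 5.92 FPKM, with limma adjusted p = 0.698 and 0.93.

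The kinases were led by JAK1 and TYK2. JAK1 had 23.4 and 24.5 FPKM with PBS and 23.0 and 22.4 with ketotifen. Both ketotifen libraries were lower, but by less than the interval resolves (change -0.07 ± 0.06 SE, 95% interval -0.20 to 0.06, limma adjusted p = 0.491). TYK2 had 17.0 and 17.8 FPKM with PBS and 17.7 and 18.6 with ketotifen, which overlap. It was the one tested gene of the chain with a change above 0 (0.06 ± 0.06 SE, interval -0.08 to 0.19, limma adjusted p = 0.627). JAK2 was far lower, with 1.26 and 1.70 FPKM with PBS and 1.44 and 1.34 with ketotifen. The PBS libraries bracketed the ketotifen libraries (change -0.05 ± 0.11 SE, interval -0.30 to 0.20, limma adjusted p = 0.824), on 308 to 439 reads.

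JAK1 stood 14.4 to 18.6 times above JAK2 and 1.20 to 1.37 times above TYK2 in FPKM. The ratio to TYK2 was 1.37 in both PBS libraries, against 1.30 and 1.20 with ketotifen, a difference in a derived value for which no test was made. JAK3, the kinase of lymphoid cytokine receptors, had 2 to 11 reads per library. JAK1 (chr1:64833229-64966504, minus strand) shares 4 exonic bases with its neighbour RAVER2. TYK2 (chr19:10350529-10380676, minus strand) shares none with another gene in the annotation used, and neither does JAK2 (chr9:4984390-5128183, plus strand).

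STAT3 had 26.01 and 26.7 FPKM with PBS and 25.5 and 26.7 with ketotifen. The 2 B libraries were nearly equal and the A libraries slightly lower, so the groups overlapped almost fully. Its change of -0.01 had an SE of 0.06 (limma adjusted p = 0.916), and the interval allowed a ratio between 0.906 and 1.08 on the FPKM + 1 scale. This was measured on 4317 to 4732 reads per library. STAT3 lies at chr17:42313324-42388568 on the minus strand and shares no exonic base with another annotated gene.

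Among the 7 STAT factors STAT3 was the highest. Lower members were STAT4 (7.49 to 7.89 FPKM), STAT2 (7.48 to 7.76), STAT5B (5.06 to 5.37) and STAT6 (3.54 to 4.22). STAT5A had 3 to 15 reads. Of the 6 tested, 0 passed limma's threshold in either direction, against 0.123% of all tested genes. Their changes lay below 0 in 4 and above in 2, with a median of -0.0081, beside -0.02 over all tested genes. STAT6 had the smallest p of them after adjustment (limma adjusted p = 0.525), with 4.22 and 3.56 FPKM against 3.54 and 3.54.

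SOCS3, the feedback inhibitor that STAT3 switches on, was close to absent and was not tested. It had 14 and 31 reads in PBS libraries A and B and 16 and 34 in ketotifen libraries A and B, which is 0.151, 0.315, 0.154 and 0.356 FPKM. In both groups library B had about 2.1 to 2.2 times the reads of library A; the groups overlapped. With a mean of 0.233 ± 0.117 FPKM with PBS and 0.255 ± 0.143 with ketotifen (SD, n = 2), no difference could be seen at this depth. SOCS3 lies at chr17:78356778-78360077 on the minus strand.

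PIAS3, which holds STAT3 off DNA, came closest to a change. It had 13.3 and 14.6 FPKM with PBS and 11.4 and 12.1 with ketotifen, so both ketotifen libraries lay below both PBS libraries. The change was -0.22 ± 0.07 (SE), with a limma p of 0.0119 before and 0.154 after adjustment, and voom gave -0.24 ± 0.08 (adjusted p = 0.0826). Without PBS library A it passed (change -0.29, limma adjusted p = 0.00927), in a fit where PBS library B alone stood for its group and was assumed to vary as the ketotifen libraries do. That fit called 8.27% of all tested genes lower. The gene lies at chr1:145848522-145859836 on the minus strand and shares 432 exonic bases (8.99%) with NUDT17, which had 1.003 to 1.26 FPKM.

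PIAS3 belongs to a family of SUMO ligases, and the other members were looked at after its values were seen. PIAS2 had 1.75 and 1.79 FPKM with PBS and 1.44 and 1.29 with ketotifen. Its change was -0.23 ± 0.09 (SE, limma adjusted p = 0.211) and it passed in voom (adjusted p = 0.0182). PIAS1 had 9.94 and 11.9 against 9.47 and 9.53 FPKM (limma adjusted p = 0.282), and PIAS4 13.9 and 15.5 against 13.1 and 14.2 (limma adjusted p = 0.489). PIAS1 and PIAS2 separated the groups as PIAS3 did, while PIAS4 overlapped. Such a separation, with ketotifen lower, was seen in 31.2% of all tested genes.

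Over all 18 negative regulators listed, 15 were tested and 0 passed in either direction with limma, against 0.123% of all tested genes. At an unadjusted p under 0.05 there were 3 below and 1 above 0, against 1095 and 1062 of the 10586 tested genes, and voom called 1 lower (PIAS2) and 0 higher, against 3.47% and 3.35%. The median change was -0.09, beside -0.02 over all tested genes. PTPN6, the phosphatase SHP1, had 14.2 and 13.96 FPKM with PBS and 12.99 and 11.8 with ketotifen (limma adjusted p = 0.211). The list holds feedback inhibitors of the SOCS family, the PIAS ligases and phosphatases, and its tested members pointed both ways (10 below and 5 above 0).

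PTPN11 had 39.1 and 38.5 FPKM with PBS and 38.1 and 37.4 with ketotifen. Both ketotifen libraries were lower by a small margin, and the change of -0.04 ± 0.05 (SE, limma adjusted p = 0.69) had a 95% interval of -0.16 to 0.08. It had the most recovered reads of the chain, 8089 to 8956, although such reads are lower bounds for each gene. It lies at chr12:112418351-112509913 on the plus strand, and 111 of its exonic bases (1.58%) are shared with RPL6 on the other strand, a ribosomal protein gene with 354 to 386 FPKM.

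Downstream of SHP2, the branch to the MAP kinases had 14 tested genes of 15, and limma called 0, against 0.123% of all tested genes. At an unadjusted p under 0.05 there were 4 below and 1 above 0, against 1095 (10.3%) and 1062 of the 10586 tested genes. Voom called 3 lower, among them GAB2 and SOS1, and 0 higher, against 3.47% and 3.35%. GAB2, the docking protein that recruits SHP2, had 22.2 and 22.9 FPKM with PBS and 18.6 and 19.0 with ketotifen, well apart (change -0.25 ± 0.06 SE, limma adjusted p = 0.102, voom adjusted p = 0.00923). MAPK3, or ERK1, had 12.6 and 12.5 against 9.43 and 10.8 FPKM (adjusted p = 0.122 with limma and 0.0788 with voom). SOS1, the exchange factor for RAS, had 12.6 and 13.6 against 11.2 and 10.8 FPKM (adjusted p = 0.0178 with voom and 0.135 with limma). It was named from voom after its values were seen. The median change of the branch was -0.04, beside -0.02 over all tested genes.

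Coactivators of STAT3 and kinases that act on its serine were 6 genes, all tested. Of these 0 passed the limma threshold, against 0.123% of all tested genes. Below 0 at an unadjusted limma p under 0.05 were 3, against 10.3% of all tested genes. The median change of the 6 was -0.11, beside -0.02 over all tested genes. EP300, the acetyltransferase that STAT3 recruits, had 18.6 and 21.3 FPKM with PBS and 16.4 and 16.6 with ketotifen (change -0.26 ± 0.07 SE, limma adjusted p = 0.141), and it was the gene of the 6 that voom called lower (adjusted p = 0.0148), against 3.47% of all tested genes. PRKCD, protein kinase C delta, had 25.8 and 25.8 against 23.1 and 22.7 FPKM (limma adjusted p = 0.167). In both genes the groups stood apart with ketotifen lower, as in 31.2% of all tested genes.

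Of 35 known STAT3 targets listed, 27 had a row and 18 were tested, of which limma called 0, against 0.123% of all tested genes. At an unadjusted p under 0.05 there were 7 below and 1 above 0, against 1095 (10.3%) and 1062 of the 10586 tested genes. Voom called 2 lower and 1 higher, against 3.47% and 3.35%. The median change was -0.12, beside -0.02 over all tested genes. VEGFA, the angiogenic growth factor that low oxygen also induces, had 38.3 and 38.0 FPKM with PBS and 30.0 and 28.1 with ketotifen. These values stood well apart, with a change of -0.38 ± 0.06 (SE, limma adjusted p = 0.0713, voom adjusted p = 0.00101). BIRC5, or survivin, which also peaks in mitosis, went the other way, with 44.3 and 40.3 against 49.6 and 50.9 FPKM (adjusted p = 0.117 with limma and 0.019 with voom). MUC1, a membrane mucin named from voom after its values were seen, had 6.53 and 8.002 against 5.63 and 4.81 FPKM (adjusted p = 0.0164 with voom and 0.119 with limma). A2M, alpha-2-macroglobulin, had 0 or 1 read. The same targets respond to other factors, and the part of STAT3 in these values was not tested.

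**Figure D3:**
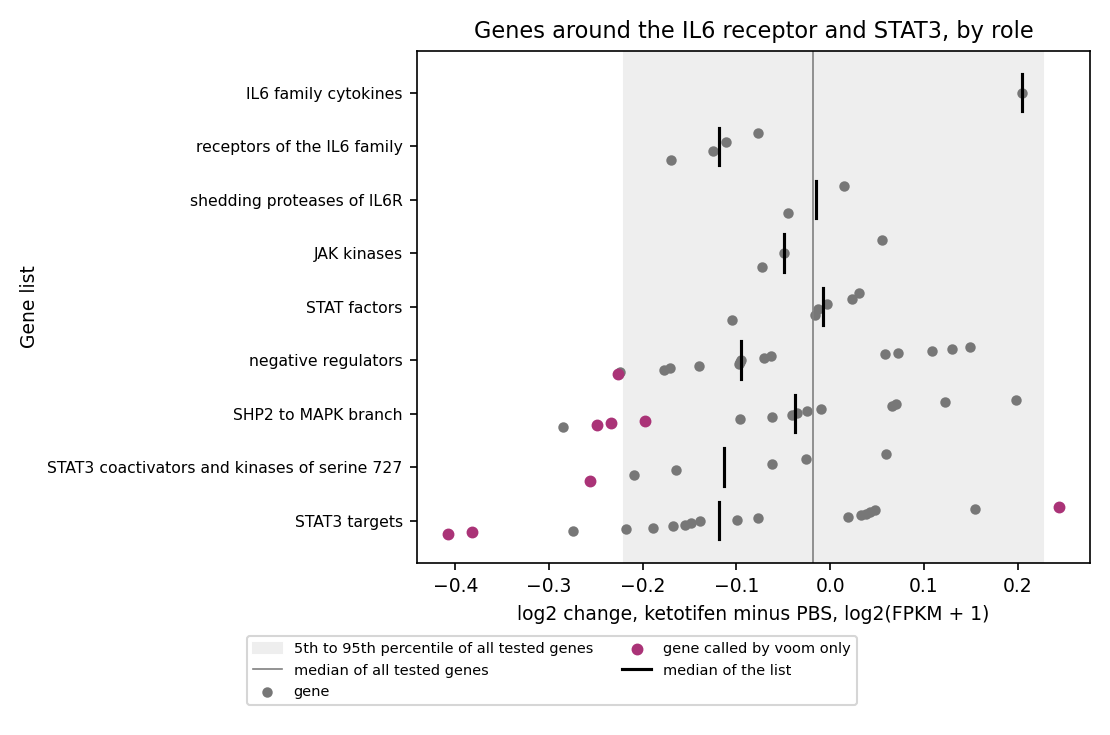
Change of each tested gene in 9 lists around the IL6 receptor and STAT3, as limma log2 ketotifen minus PBS on log2(FPKM + 1). Black ticks are list medians, grey points single genes, purple points the genes that voom called (limma called none), and the grey band the 5th to 95th percentile of all tested genes. Points of the kinases and STAT factors lie close to 0, and VEGFA (-0.38) and MUC1 (-0.41) lie farthest left.

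Across the 9 lists 69 different genes were tested, and limma called 0 of them, against 0.123% of all tested genes. At an unadjusted p under 0.05 there were 17 below and 4 above 0, against 1095 and 1062 of the 10586 tested genes. Voom called 7 lower and 1 higher, against 3.47% and 3.35%. Without the genes of the chain itself the 61 others gave the same counts in voom. The groups did not overlap in 28 genes that were lower and 11 that were higher with ketotifen, against 31.2% and 23.2% of all tested genes.

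How far the values depended on single libraries differed by gene. The change of PTPN11 stayed between -0.053 and -0.028 when each library was left out in turn, and that of STAT3 between -0.044 and 0.018. IL6R ranged from -0.26 without ketotifen library B to 0.038 without ketotifen library A, and JAK2 from -0.18 without PBS library A to 0.079 without PBS library B. IL6ST and PIAS3 stayed below 0 throughout, at -0.27 to -0.072 and -0.29 to -0.16. The direction of PIAS3 is fixed by its groups, which do not overlap.

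**Figure D4:**
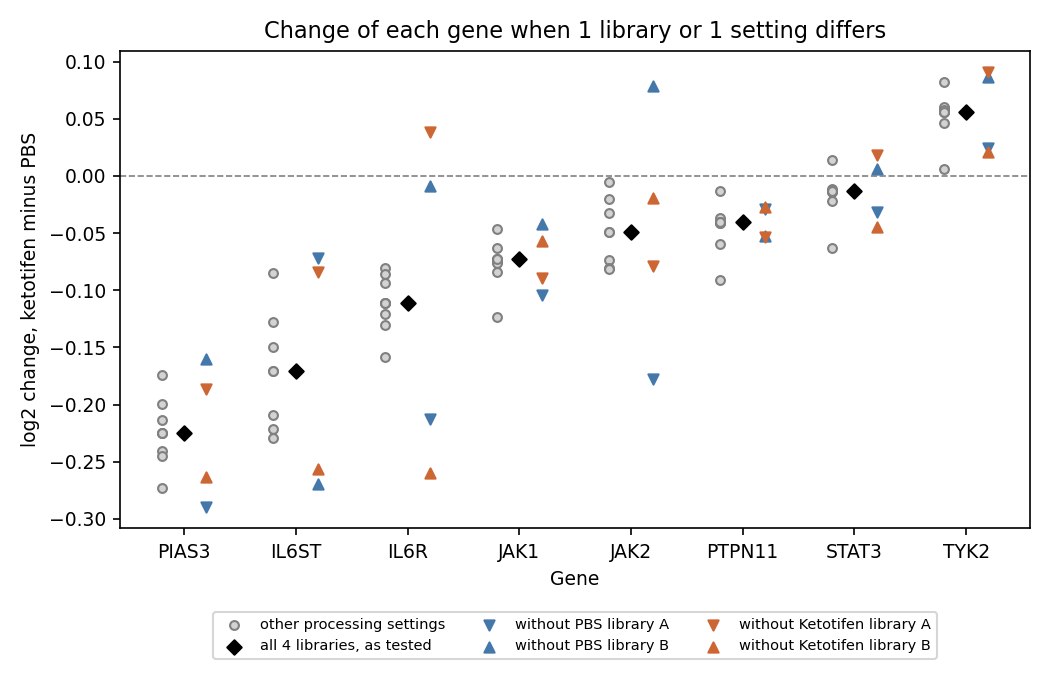
log2 change of the 8 tested genes, ketotifen minus PBS, with all 4 libraries (black diamonds), with each library left out (blue and orange triangles) and under the other processing settings (grey circles). The points of STAT3 cluster around 0, those of PIAS3 lie between -0.29 and -0.16, and those of IL6R and JAK2 fall on both sides of 0.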

How the data were processed

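The authors deposited 1 table of FPKM values with 1 column per library. Per the labels' protocols, TRIzol was used for total RNA, the library kit selects mRNA and keeps strand, and sequencing was paired-end. Per the submitters' processing notes, fastp, HISAT2, HTSeq and GRCh38 were used; the sources used here give no versions, annotation, gene lengths or strand setting. Columns name their group and a letter (and a 5 for ketotifen); no label ties the letter to a replicate number.

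Genes averaging 1 FPKM or more were tested with limma 3.58.1 (R 4.3.3, intensity trend) on log2(FPKM + 1), two-sided, with Benjamini-Hochberg adjustment over 10586 genes. Fold changes on this scale understate changes of low genes. An exact permutation test of 2 against 2 libraries cannot go below p = 0.333 and was not made. Whole reads were recovered (Python 3.11.15) from the FPKM steps within 0.02 reads for all 10586 tested genes; of 500 decoy genes with altered values 4 also gave whole reads, and a common factor can remain, so reads are lower bounds. Depths relative to PBS library A were 1.06 for PBS library B, 1.12 and 1.03 for ketotifen libraries A and B. Voom on these reads was an alternative. Limma and voom were both tried on simulated data whose spread was taken from the limma fit of these libraries. Such data cannot show which method suits the real libraries better.

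The genes and lists were chosen with earlier results of these data known. Named are all genes of the chain, from each list the 2 others with the smallest p and those past the threshold, other JAK and STAT genes, genes with a STAT sequence match, and those said to be named after their values were seen; some genes that this rule names are not reported here. Gene positions are from GENCODE 29. Alternatives were other pseudocounts (0.1 and 5), filters, scalings, voom, leaving out each library and, added after the data were seen, a block on the letters.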

Additional observations from a re-analysis of the deposited data

How the results depend on the processing

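No member of the chain passed under any setting that kept all 4 libraries, and 0 to 1 passed when a library was left out, the 1 being PIAS3 without PBS library A. Over all genes 13 were called; the count was 0 with no filter (2260 at an unadjusted limma p under 0.05, 722 by voom with the filter), 27 among genes averaging 5 FPKM or more, 2 after median ratio scaling, 3 after quantile normalization, 722 with voom on recovered reads, and 10 to 1936 with a library left out. In the pathway lists, where 0 were called, 1 (VEGFA) passed among genes averaging 5 FPKM or more and 1 (VEGFA) after rescaling to an equal sum of FPKM, 8 with voom, and 0 to 13 with a library left out, with 13 when PBS library A was out and 3 when PBS library B was. The change of STAT3 turned to 0.014 after median ratio scaling and ran from -0.044 to 0.018 with a library left out. That of IL6R ran from -0.26 to 0.038 and that of JAK2 from -0.18 to 0.079 in those fits, none past the threshold; the cause was not tested. All other changes of the chain kept their sign. Where a library was left out, the lone library was assumed to vary like the other group. IL6ST and JAK2 average under 5 FPKM and have no value under that filter. A replicate block on the column letters was added after the data were seen; the letters tie to no replicate number of the labels, so the libraries share only a letter. It called 637 genes (231 lower, 406 higher), 6 in the pathway lists (BIRC5 higher; EP300, GAB2, MAPK3, MUC1 and VEGFA lower) and 0 of the chain, where PIAS3 had an adjusted p of 0.0663 with limma. SOCS3, the cytokines and JAK3 are limited by their few reads.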

Other observations

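In 5 of the 9 genes of the chain (IL6R, TYK2, STAT3, SOCS3 and PIAS3) library B was higher than library A in both groups, in 1 (PTPN11) it was lower in both, and in 3 the groups differed. Among all tested genes library B was higher in both groups in 27.8% and lower in both in 26.2%. SOCS3 showed the widest such gap, with 14 and 16 reads in the A libraries and 31 and 34 in the B libraries. The letters are not known to mark a shared culture or day.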
